A study of Mus musculus with 4 samples.

Results

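The genes examined were the nuclear genes whose symbols start with Nduf or Uqcr, leaving out the Ndufaf assembly factors, which are the subunit genes of respiratory complexes I and III. The rule found 46 genes of the 31053 in each count matrix, 38 with Nduf symbols and 8 with Uqcr symbols, and it used no measured value. Single-cell RNA-seq had been made from whole colons of C57BL/6 mice of wild-type genotype, on cells sorted for CD45, which leukocytes carry on their surface. Stressed mice had been restrained every day for 7 days and control mice had received the control treatment, with 2 libraries in each group. The labels do not say whether libraries came from separate mice or pools, so the p-values measure the spread between these libraries only.

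Complex I (NADH dehydrogenase) takes electrons from NADH through its peripheral arm, which reaches into the mitochondrial matrix, and hands them to ubiquinone, while its membrane arm pumps protons. Complex III (the cytochrome bc1 complex) passes the electrons on from ubiquinol to cytochrome c and pumps protons as well. The proton gradient drives ATP synthase, and both complexes are sources of superoxide in macrophages and other leukocytes. Some core subunits are encoded by mitochondrial DNA (the mt-Nd genes and mt-Cytb), so these nuclear genes are only a portion of each complex. Of the 46 genes, 17 encode subunits of the peripheral arm, 19 of the membrane arm and 8 of complex III. The remaining 2 were Ndufa4, now assigned to complex IV, and its paralog Ndufa4l2. All 46 were annotated as protein coding and lay on 17 chromosomes.

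The matrices held 2941 and 6124 barcodes for controls 1 and 2, and 10259 and 5591 for stress 1 and 2, each with at least 500 unique molecular identifiers (UMIs, counts of single RNA molecules). Barcodes with at most 10% mitochondrial UMIs were kept, which left between 2562 and 8333 cells per library with medians of 2174 to 4547 UMIs. The stress libraries lost more barcodes to that limit, 18.8 and 26.0% against 12.9 and 11.1% in the controls. Between 3 and 19 barcodes were shared by any pair of libraries. Cells were assigned to a type when at least 2 of 6 marker genes of that type were detected and no other list had as many. Types are called -like since they rest on RNA alone. This gave 9790 B cell-like, 4654 T cell-like, 2033 plasma cell-like, 710 macrophage-like, 565 monocyte-like and 286 natural killer (NK) or ILC1-like cells, and 1589 of the 20476 kept cells were not assigned. Markers of cells that should lack CD45 were also met, in 250 fibroblast-like, 48 epithelial-like and 14 endothelial-like cells, and 235 of the fibroblast-like cells came from control 1. Counts were summed per library and cell type, so that libraries were the replicates.

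The share of all UMIs that fell on the 46 genes was highest in epithelial-like cells and lowest in neutrophil-like cells. In B cell-like cells they made 0.618% of UMIs in control 1, 0.519% in control 2, 0.592% in stress 1 and 0.614% in stress 2. In T cell-like cells the same shares were 0.660 and 0.520% in the controls and 0.600 and 0.666% under stress. In NK or ILC1-like cells they were 0.726 and 0.615% in the controls and 0.654 and 0.739% under stress. The libraries of both groups overlapped in these 3 lymphocyte types, with control 2 the lowest each time.

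Monocyte-like cells held 0.634 and 0.676% in the controls and 0.642 and 0.677% under stress, again with overlapping groups. In macrophage-like cells the share was 0.547% in control 1 and 0.534% in control 2, against 0.615% in stress 1 and 0.704% in stress 2. Both stress libraries therefore lay above both controls, and the exact (Clopper-Pearson) 95% intervals, which cover counting error only, were 0.533 to 0.561%, 0.507 to 0.562%, 0.600 to 0.631% and 0.690 to 0.718% in that order. No test of this difference was made over the summed genes.

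Epithelial-like cells ranged from 1.13 to 1.74%, although 3 of their 4 libraries held 2 to 8 such cells. Neutrophil-like cells were the lowest, at 0.195 to 0.269%, with 1 to 43 cells per library. Both ranges lay clear of those of the 6 larger leukocyte types, which spanned 0.386 to 0.739%. Of the cell types fitted below, plasma cell-like cells held the lowest share, 0.389, 0.401, 0.386 and 0.411% in controls 1 and 2 and stress 1 and 2. Immunoglobulin transcripts, however, were 63.6 to 67.1% of plasma cell-like UMIs and 1.15 to 2.94% of B cell-like UMIs. With immunoglobulin and mitochondrially encoded UMIs left out of the denominator, the plasma cell-like share rose to 1.18 to 1.29% and that of B cell-like cells to 0.565 to 0.674%, so the order of these types turned with the denominator.

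**Figure D1:**
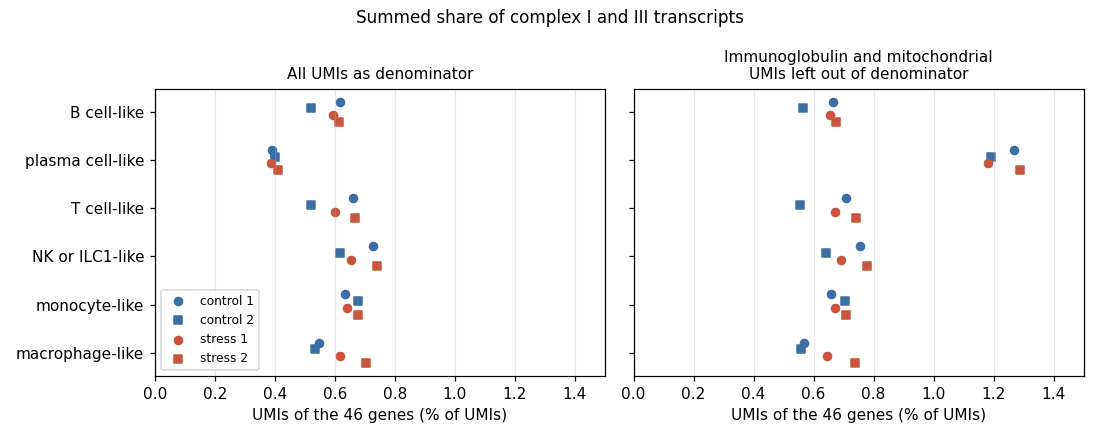
UMIs of the 46 genes as a percentage of all UMIs (left) or of all UMIs other than immunoglobulin and mitochondrially encoded UMIs (right), for 6 marker-gated cell types, where each point is a library. Plasma cell-like cells stand at 0.386 to 0.411% on the left and at 1.18 to 1.29% on the right, and both stress points of macrophage-like cells lie above both control points.

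Plasma cell-like cells, the antibody-secreting descendants of B cells, were compared with B cell-like cells inside each library. Levels are given as CPM, counts per 1000000 UMIs, after TMM scaling, which sets the libraries so that most genes show no net change. Of the 45 genes that passed the filter on low counts, 38 were higher and 2 lower in plasma cell-like cells (edgeR quasi-likelihood test, Benjamini-Hochberg adjusted p under 0.05 over all 10406 genes). That is 88.9% of the genes, where 65.3% of all genes tested were called in either direction 33.2% higher and 32.2% lower. The median log2 change was 0.70 over the 45 genes and -0.01 over all genes. On this TMM scale nearly all of these genes were thus higher in plasma cell-like cells. The direction depends on that scaling for most of them: as a share of all UMIs, 35 of the 45 genes were lower and 4 higher in plasma cell-like cells in all 4 libraries, and the 2 scales differ by 1.51 on the log2 scale.

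The 4 genes that were higher on both scales in every library were Ndufa1, Ndufa4, Uqcrq and Ndufb9, those with the 4 largest changes. The 2 scales differ by nearly the same shift for each gene, so this is not a separate result. Ndufa1 (ENSMUSG00000016427, chrX:37187588-37191163, minus strand), a small subunit of the membrane arm needed to assemble complex I, stood at 56.0, 55.2, 48.0 and 72.4 TMM-scaled CPM in B cell-like cells of controls 1 and 2 and stress 1 and 2. In plasma cell-like cells of the same libraries it stood at 355, 378, 330 and 506. Every plasma cell-like value was therefore several times the highest B cell-like value, and the log2 change was 2.76 ± 0.07 (SE, n = 4 libraries, adjusted p = 5.75e-11). As a share of all UMIs, the change of Ndufa1 was 1.24 on the log2 scale.

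Ndufa4 (chr6:11900292-11907497, minus strand) followed, with 167, 154, 164 and 175 scaled CPM in B cell-like and 886, 674, 756 and 915 in plasma cell-like cells. Its log2 change was 2.28 ± 0.07 (adjusted p = 1.34e-10), and 0.77 as a share of all UMIs. Uqcrq (chr11:53427922-53430831, minus strand), a small subunit of complex III near its ubiquinone-binding site, stood at 92.2, 74.6, 82.9 and 90.3 in B cell-like and 313, 321, 299 and 356 in plasma cell-like cells. This was a log2 change of 1.93 ± 0.08 (adjusted p = 1.59e-09) on the scaled levels and of 0.41 as a share of all UMIs. Ndufb9, a membrane arm subunit of the LYR protein family, rose by 1.83 ± 0.09 (adjusted p = 3.88e-09), with values of 64.8 to 89.0 against 258 to 295, and by 0.32 as a share of all UMIs. For Ndufb9 the annotation lists another gene model, Gm49356, over it on the same strand, so reads of both may be exchanged.

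The other named genes changed by less, and for 3 of these 6 the sign turned with the scaling. Ndufv3, an accessory subunit of the peripheral arm, rose by 1.64 ± 0.09 and Ndufs6, a zinc-binding subunit of the same arm, by 1.34 ± 0.08 on the TMM scale. Uqcr11, the smallest complex III subunit, rose by 1.62 ± 0.10. In the membrane arm Ndufs5 rose by 1.60 ± 0.11, Ndufa13 (GRIM-19) by 1.40 ± 0.07 and Ndufb6 by 1.25 ± 0.09. As a share of all UMIs, Ndufa13, Ndufs6 and Ndufb6 instead had log2 changes of -0.11, -0.17 and -0.27, while Ndufv3, Uqcr11 and Ndufs5 stood at 0.14, 0.12 and 0.10.

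By role, on the TMM scale, in the membrane arm 18 of 19 tested genes were called higher (median log2 0.92), and in the peripheral arm 14 of 17 (median 0.66). In complex III 5 of 8 were higher and 2 lower (median 0.39). Over all genes 33.2% were higher and 32.2% lower, and differences between the roles were not tested. The lower genes were Uqcrh (chr4:116066965-116075071, minus strand), the hinge protein that holds cytochrome c1 against cytochrome c, and Uqcr10, a small subunit next to it. Uqcrh stood at 449, 384, 365 and 388 scaled CPM in B cell-like and at 353, 312, 300 and 327 in plasma cell-like cells, lower in 4 of 4 libraries (log2 -0.29 ± 0.06, adjusted p = 0.00137). Uqcr10 was lower in all 4 libraries too (log2 -0.24 ± 0.08, adjusted p = 0.0255), and as a share of all UMIs the changes of Uqcrh and Uqcr10 were -1.81 and -1.76. Without control 1 or without stress 1, only 1 gene was called lower. For the nuclear core subunits of complex I and Uqcrc1, Uqcrc2 and Uqcrfs1, all 10 estimates were positive on the TMM scale, from 0.18 to 1.14. Ndufs3 of the peripheral arm rose most, by 1.14 ± 0.08 (adjusted p = 1.06e-07). Others called higher included Ndufs8 (0.80 ± 0.08), Ndufs7 (0.66 ± 0.08), Ndufv1 (0.64 ± 0.10) and Uqcrc1 (0.47 ± 0.09). Ndufs1 (0.18 ± 0.11, adjusted p = 0.147) and Uqcrc2, a core protein of complex III (0.20 ± 0.08, adjusted p = 0.0513), did not pass.

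**Figure D2:**
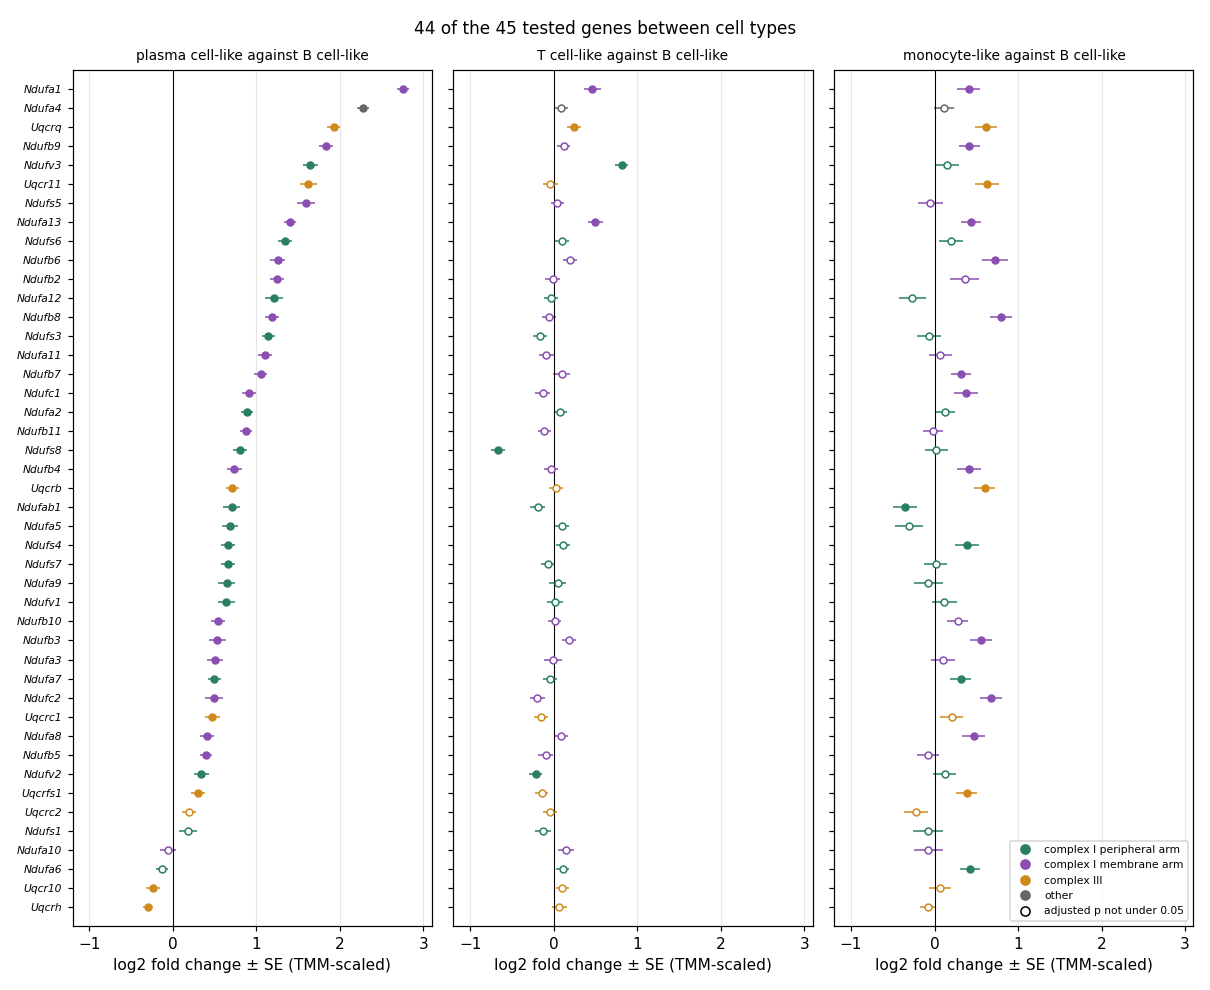
log2 fold change with its standard error (x axis) of 44 of the 45 tested genes (y axis, in the order of the plasma cell-like comparison), against B cell-like cells of the same library, coloured by role and filled where the adjusted p was under 0.05. Nearly all points of the plasma cell-like panel lie right of 0, up to 2.76 for Ndufa1, while most T cell-like points lie near 0.

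**Figure D3:**
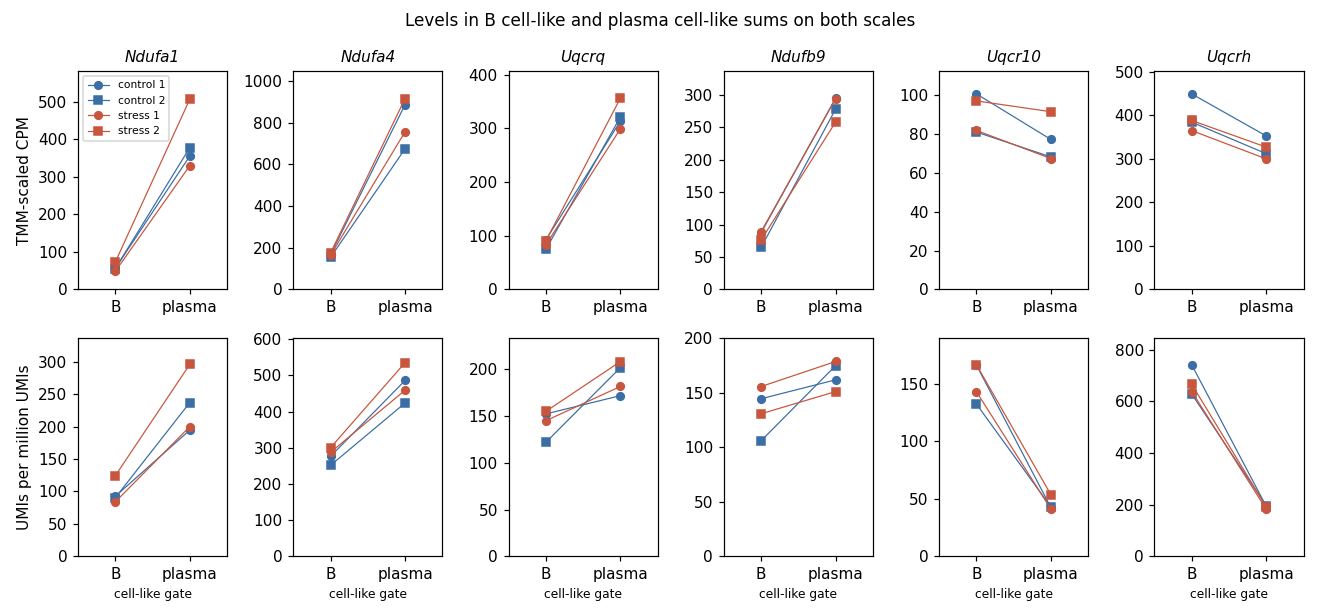
Levels of 6 genes in the B cell-like and plasma cell-like sums of each library, joined by a line, as TMM-scaled CPM (top) and as UMIs per 1000000 UMIs (bottom), both axes from 0. Ndufa1, Ndufa4, Uqcrq and Ndufb9 rise in every library on both scales, and Uqcr10 and Uqcrh fall on both.

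Other parts of the respiratory chain were counted from lists chosen with earlier results of these data known. On the TMM scale, 9 of 11 nuclear complex IV genes were higher and 1 lower in plasma cell-like cells (Cox6a1 1.12 ± 0.07, Cox7a2l -1.06 ± 0.07). Of 15 nuclear ATP synthase genes 12 were higher, among them Atp5g1 (1.27 ± 0.09). Cycs and Cyc1, the cytochromes that receive electrons within and from complex III, were higher by 1.17 ± 0.09 and 0.70 ± 0.08. In complex II, 3 of 4 genes were higher. Of the 14 complex I assembly factors 5 were higher and 1 lower (median 0.0044), and of 12 citric acid cycle enzymes 2 were higher and 3 lower (median 0.03). Of the 8 mitochondrially encoded subunits of both complexes 5 were higher and 1 lower, with a median of 0.21. Regulators of mitochondrial gene expression had 1 higher and 4 lower of 12, Tfam, which packages mitochondrial DNA, at -0.75 ± 0.14 and Nrf1 at -0.59 ± 0.11. The shift between the scales given above applies to all of these lists.

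The sequence upstream of the start is shown for the 3 genes with the largest changes in plasma cell-like cells that the RefSeq promoter table (build GRCm38.p6) held, and for both genes that were lower. Of the 46 genes 38 were in that table. The stretches end just before the more upstream of the RefSeq and GENCODE starts and are written on the strand of the gene: Ndufa1 chrX:37191239-37191488, Ndufa4 chr6:11907498-11907700, Ndufv3 chr17:31519865-31520114 (plus strand), Uqcrh chr4:116075072-116075320 and Uqcr10 chr11:4704345-4704594. Capitals mark a match to any of 5 motifs searched on both strands, those of NRF1 (GCGCA, any base, then GCGC), ETS factors such as GABP (CCGGAAG), YY1 (AAGATGGCG), ESRRA (TCAAGGTCA) and CRE-binding factors (TGACGTCA).
Ndufa1: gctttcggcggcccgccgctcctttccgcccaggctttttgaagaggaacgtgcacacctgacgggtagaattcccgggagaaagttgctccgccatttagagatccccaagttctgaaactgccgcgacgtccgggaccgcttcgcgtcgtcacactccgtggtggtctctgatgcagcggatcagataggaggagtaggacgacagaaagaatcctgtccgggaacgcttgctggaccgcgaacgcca
Ndufa4: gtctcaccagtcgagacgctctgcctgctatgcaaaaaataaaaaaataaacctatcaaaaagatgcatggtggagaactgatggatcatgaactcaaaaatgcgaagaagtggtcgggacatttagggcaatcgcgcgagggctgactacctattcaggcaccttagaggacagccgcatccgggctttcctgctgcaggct
Ndufv3: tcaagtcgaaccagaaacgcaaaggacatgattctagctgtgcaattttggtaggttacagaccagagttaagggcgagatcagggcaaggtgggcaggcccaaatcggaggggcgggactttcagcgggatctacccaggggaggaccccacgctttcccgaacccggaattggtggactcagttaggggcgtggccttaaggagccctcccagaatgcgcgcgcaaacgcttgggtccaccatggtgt
Uqcrh: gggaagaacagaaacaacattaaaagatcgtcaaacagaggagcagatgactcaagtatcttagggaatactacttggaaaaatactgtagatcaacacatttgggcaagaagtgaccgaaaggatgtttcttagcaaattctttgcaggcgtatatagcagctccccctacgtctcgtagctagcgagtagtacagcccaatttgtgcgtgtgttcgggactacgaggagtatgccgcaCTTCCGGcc
Uqcr10: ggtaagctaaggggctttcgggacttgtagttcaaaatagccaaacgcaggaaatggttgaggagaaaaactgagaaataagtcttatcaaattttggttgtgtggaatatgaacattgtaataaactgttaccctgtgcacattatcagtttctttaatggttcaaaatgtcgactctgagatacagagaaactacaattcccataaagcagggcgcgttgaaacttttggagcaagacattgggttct
Only Uqcrh among these 5 held a match, an ETS motif on the opposite strand. Over the 250 bases upstream, the NRF1 motif was found for 6 of the 38 genes (15.8%), Ndufa5, Ndufa8, Ndufa11, Ndufb4, Ndufs5 and Ndufs6, where 3.74% of all 32851 promoters of that length in the table held it. The ETS motif was found for 5 genes (13.2%, against 6.91%), Ndufb6, Ndufb7, Ndufs3, Uqcr11 and Uqcrh. The CRE motif was found for 4 (10.5%, against 1.55%), Ndufa10, Ndufa11, Ndufb2 and Uqcrfs1. Neither the YY1 nor the ESRRA letters were in any of the 38 windows, against 0.606 and 0.387% of all. A gene counted as matched when any of its promoters in the table matched, while the shares of all count single promoters. These units differ, so the shares are not strictly comparable. No matches of different motifs overlapped, and these shares describe letters and not binding.

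T cell-like and B cell-like cells differed little in these genes. Only 6 of 45 genes were called (13.3%, where 49.0% of all 10450 genes tested were), 4 higher and 2 lower in T cell-like cells, where 24.9% of all genes were higher and 24.1% lower. The median size of the log2 change, without its sign, was 0.10 over the 45 genes and 0.39 over all. Ndufv3 (chr17:31520115-31531331, plus strand) stood at 155, 105, 118 and 149 scaled CPM in T cell-like cells of controls 1 and 2 and stress 1 and 2, and at 85.4, 58.0, 69.7 and 86.0 in B cell-like cells. It was higher in 4 of 4 libraries (log2 0.81 ± 0.08, adjusted p = 1.87e-05), and every T cell-like value lay above every B cell-like value. Ndufs8 (chr19:3908863-3912774, minus strand), the core subunit with a pair of iron-sulfur clusters on the path to ubiquinone, showed the opposite. It stood at 74.7, 58.1, 64.2 and 67.1 in T cell-like and at 111, 88.6, 115 and 104 in B cell-like cells, so every T cell-like value lay below every B cell-like value (log2 -0.67 ± 0.09, adjusted p = 0.000143).

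Ndufa13 (0.50 ± 0.09, adjusted p = 0.00109) and Ndufa1 (0.46 ± 0.10, adjusted p = 0.00364) were also higher in T cell-like cells in 4 of 4 libraries. Uqcrq (0.24 ± 0.09, adjusted p = 0.0412) and Ndufv2 (-0.22 ± 0.08, adjusted p = 0.0460), a core subunit of the NADH-binding module, passed narrowly. Uqcrq lost its call under DESeq2 (adjusted p = 0.0702), without the filter on low counts, and without control 1, stress 1 or stress 2. Ndufv2 lost its call under DESeq2 (adjusted p = 0.188) and whichever library was left out. Ndufb6 (0.20 ± 0.09), Ndufc2 (-0.20 ± 0.09), Ndufab1 (-0.19 ± 0.09) and Ndufs3 (-0.16 ± 0.08) came next and did not pass. Among the 8 mitochondrially encoded subunits of both complexes 7 were lower in T cell-like cells, mt-Cytb by -0.52 ± 0.11 and mt-Nd5 by -0.48 ± 0.09. That list takes part in the mitochondrial limit used to keep cells. Of 12 citric acid cycle enzymes 6 were lower and none higher, with Fh1 at -1.05 ± 0.13.

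In monocyte-like cells 20 of 45 genes differed from B cell-like cells (44.4%, where 65.1% of all 8779 genes tested were called). The called genes were 19 higher and 1 lower, where 28.7% of all genes were called higher and 36.4% lower. The largest change was that of Ndufb8, a membrane arm subunit much used as a marker of assembled complex I, with 194, 203, 219 and 207 scaled CPM in monocyte-like and 134, 106, 126 and 113 in B cell-like cells of controls 1 and 2 and stress 1 and 2. The ranges were far apart (log2 0.79 ± 0.13, adjusted p = 7.91e-06). Ndufb6 (0.73 ± 0.15), Ndufc2 (0.67 ± 0.13), Ndufb3 (0.56 ± 0.13), Ndufa8 (0.47 ± 0.14) and Ndufa13 (0.44 ± 0.12), all of the membrane arm, rose as well. Complex III was represented by Uqcr11 (0.63 ± 0.14), Uqcrq (0.62 ± 0.13) and Uqcrb (0.60 ± 0.12).

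By role, 11 of 19 membrane arm genes, 4 of 8 complex III genes and 4 of 17 peripheral arm genes were higher in monocyte-like cells. The lower gene was Ndufab1, the mitochondrial acyl carrier protein (-0.35 ± 0.15, adjusted p = 0.0383). No gene was called lower under DESeq2, without the filter on low counts, at a mitochondrial limit of 25%, with doublets left out, with immunoglobulin and mitochondrial rows left out, or without control 1, stress 1 or stress 2. All 8 mitochondrially encoded subunits were lower in monocyte-like cells (mt-Cytb -1.02 ± 0.07, mt-Nd1 -0.77 ± 0.07), and 6 of 13 tested assembly factors of complex I were lower and 1 higher (Ndufaf4 -2.14 ± 0.28). Without stress 1 or without stress 2 the count of called genes was 13 (28.9%), where 53.4 and 53.5% of all genes were then called.

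Macrophage-like and monocyte-like cells were close on the TMM scale. Only 2 of 45 genes differed (4.44%, where 14.8% of all 7055 genes were called, 7.75% higher and 7.02% lower), and the median log2 change was -0.02. As a share of all UMIs the median was -0.16, with 10 of the 45 genes lower and 2 higher in macrophage-like cells in all 4 libraries. Ndufs5, a membrane arm subunit, stood at 103, 108, 97.8 and 131 scaled CPM in macrophage-like and at 73.3, 84.2, 78.7 and 79.6 in monocyte-like cells of controls 1 and 2 and stress 1 and 2, so the types did not overlap (log2 0.50 ± 0.15, adjusted p = 0.0225). Uqcrfs1, the Rieske iron-sulfur protein of complex III, was lower in macrophage-like cells, at 163, 138, 168 and 136 against 213, 227, 195 and 178 (log2 -0.39 ± 0.13, adjusted p = 0.0416). Neither passed under DESeq2 (adjusted p of 0.246 and 0.189). Ndufs5 was also lost without stress 1 or stress 2, and Uqcrfs1 on leaving out any of the 4 libraries.

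Between stressed and control mice no gene of the 45 (44 in NK or ILC1-like cells) passed in any of the 7 fits. The shares of all genes called in these fits were 0% in all cells together and in T cell-like cells, 0.430% in B cell-like, 0.446% in plasma cell-like, 0.0835% in NK or ILC1-like, 0.112% in monocyte-like and 1.05% in macrophage-like cells. By direction, the share called higher and lower was 0.271 and 0.159% in B cell-like, 0.0519 and 0.394% in plasma cell-like, 0.0835 and 0% in NK or ILC1-like, 0.0801 and 0.032% in monocyte-like and 0.436 and 0.614% in macrophage-like cells. At an unadjusted p under 0.05 the fits held 0, 0, 1, 0, 1, 2 and 2 of these genes, for all cells, B cell-like, plasma cell-like, T cell-like, NK or ILC1-like, monocyte-like and macrophage-like cells, and DESeq2 called 0 in each. Among all genes tested, edgeR held at that unadjusted p, in the same order, 872 of 13241, 1342 of 10688, 1031 of 9635 and 783 of 10299. In NK or ILC1-like, monocyte-like and macrophage-like cells it held 213 of 3591, 563 of 6246 and 922 of 7332. The smallest adjusted p of any of these genes was 0.279, for Ndufc1 in macrophage-like cells. The nuclear core subunits of complex I and Uqcrc1, Uqcrc2 and Uqcrfs1 had log2 changes between -0.10 and 0.20 in B cell-like, between -0.21 and 0.24 in T cell-like and between -0.22 and 0.07 in plasma cell-like cells. The ranges were -0.58 to 0.47 in NK or ILC1-like cells, where 9 of the 10 were tested, -0.24 to 0.19 in monocyte-like and -0.03 to 0.59 in macrophage-like cells. The medians over the 45 genes were 0.07 in B cell-like, 0.07 in T cell-like, -0.06 in plasma cell-like and -0.00060 in monocyte-like cells, and 0.09 over the 44 in NK or ILC1-like cells. Leaving out 1 library turned the sign of several: without control 2 the medians were -0.09 in B cell-like, -0.05 in T cell-like and -0.04 in NK or ILC1-like cells, and without control 1 they were 0.16, 0.17 and 0.22. Without stress 2 they were 0.06, -0.0083 and 0.0031 in the same order, and that of plasma cell-like cells was -0.15. Without control 1 the plasma cell-like median was -0.01, and that of monocyte-like cells lay between -0.05 and 0.02 as libraries were left out.

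Genes whose stress libraries lay on one side of both controls were counted among the 45 tested (44 in NK or ILC1-like cells). In all cells both stress libraries were above both controls for 9 genes and below them for 2, where 19.7 and 17.4% of all genes were. In B cell-like cells it was 8 above and 2 below (22.2 and 20% of all genes), and in T cell-like cells 7 and 7 (19.9 and 18%). In plasma cell-like cells 4 were above and 12 below (21.9 and 21%). NK or ILC1-like cells had 7 above and 3 below (17.1 and 18.2%), and monocyte-like cells 6 and 6 (20.9 and 20.7%). Outside macrophage-like cells, the estimates farthest from 0 within a type were those of Ndufb8 (0.63 ± 0.29) and Ndufs7 (-0.58 ± 0.33) in NK or ILC1-like cells and Ndufs6 (0.56 ± 0.25) and Ndufb11 (-0.43 ± 0.19) in monocyte-like cells. In the other types they were Ndufa1 (0.40 ± 0.27) and Uqcrh (-0.25 ± 0.19) in T cell-like, Ndufc2 (0.33 ± 0.18) and Ndufb4 (-0.27 ± 0.17) in B cell-like, and Ndufa8 (0.23 ± 0.13) and Ndufs5 (-0.28 ± 0.12) in plasma cell-like cells.

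**Figure D4:**
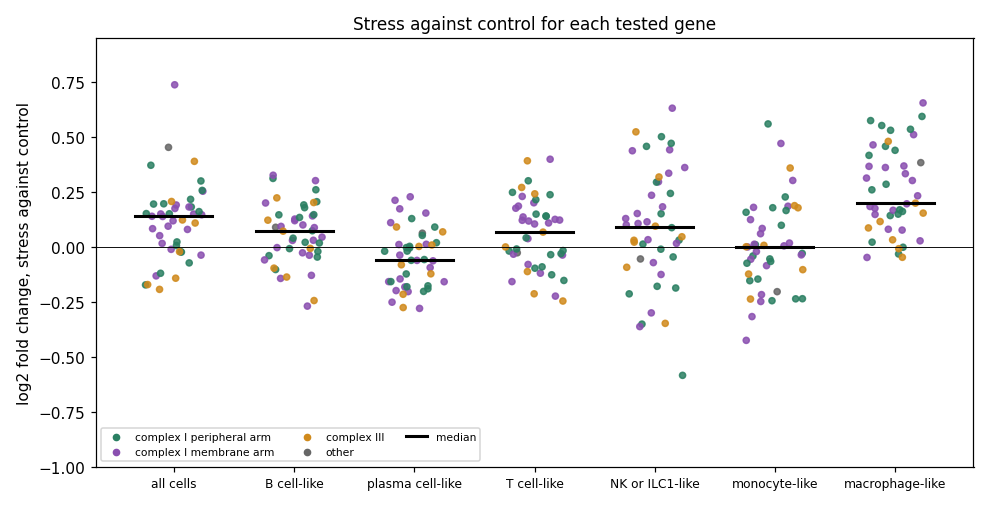
log2 fold change of stress against control (y axis) for each tested gene in all kept cells and in 6 cell types, with points coloured by role, spread sideways for legibility, and a bar at the median. The medians lie between -0.06 and 0.20, and no gene had an adjusted p under 0.05.

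Macrophage-like cells, which take up and clear material in the gut wall, had the highest median. There 40 of 45 genes had a higher estimate under stress, with a median log2 change of 0.20 against -0.0042 over all 7332 genes, and the smallest and largest values were -0.05 and 0.65. The median was 0.33 without control 1 and 0.39 without stress 1, and 0.19 and 0.16 without control 2 and stress 2. Both stress libraries lay above both controls for 17 of the 45 genes and below them for 0, where 21.3% of all genes lay above and 21.2% below. By role, the estimate was positive for 15 of 17 peripheral arm, 18 of 19 membrane arm and 6 of 8 complex III genes, with medians of 0.28, 0.23 and 0.10. Ndufc1, a membrane arm subunit, stood at 82.2 and 69.0 scaled CPM in controls 1 and 2 and at 104 and 141 in stress 1 and 2, with no overlap (log2 0.65 ± 0.24, adjusted p = 0.279).

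Ndufs1, the largest subunit of complex I and the holder of 3 iron-sulfur clusters in its electron path, stood at 18.8 and 29.0 in the controls and at 33.3 and 31.6 under stress (log2 0.59 ± 0.32, adjusted p = 0.497). Ndufa9, at the base of the peripheral arm, stood at 44.6 and 47.2 in the controls and 79.9 and 56.4 under stress (log2 0.57 ± 0.27, adjusted p = 0.422). Ndufv2 stood at 68.3 and 90.8 against 120 and 99.2 (log2 0.53 ± 0.23, adjusted p = 0.381). In each of these genes the groups did not overlap, but libraries of one group differed by more than the gap between the groups. Uqcrh, by contrast, stood at 543 and 490 in the controls and 467 and 536 under stress, with overlapping groups (log2 -0.05 ± 0.19).

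The other nuclear chains had positive estimates in the same cells, 10 of 11 for complex IV (median 0.31), 13 of 15 for ATP synthase (median 0.35), 4 of 4 for complex II (median 0.25) and 11 of 12 for the citric acid cycle (median 0.27). No gene of these lists passed the test. The mitochondrially encoded subunits had 2 of 8 positive (median -0.09). Of 7 genes of mitochondrial peroxide defence 2 were positive (median -0.03). Prdx5, a peroxiredoxin, was the only one called (1.24 ± 0.19, adjusted p = 0.0182). In monocyte-like cells Prdx5 stood at 0.91 ± 0.18 and did not pass (adjusted p = 0.0928).

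In macrophage-like cells the summed macrophage markers were lower in both stress libraries, while the summed monocyte markers overlapped between the groups. The summed level of the 6 macrophage markers was 14086 and 9602 CPM in controls 1 and 2, against 7788 and 7988 in stress 1 and 2. That of the 6 monocyte markers was 499 and 1605 in the controls and 959 and 871 under stress, and none of the 6 was at 0. The part of these markers in the result was not tested beyond leaving out cells: without any cell that held a monocyte marker, 143 and 15 control cells and 40 and 64 stress cells remained, and 23 of 34 tested genes had a positive estimate with a median of 0.22. This alternative was chosen after seeing the data. Control 2 gave only 46 macrophage-like cells in the main gate.

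**Figure D5:**
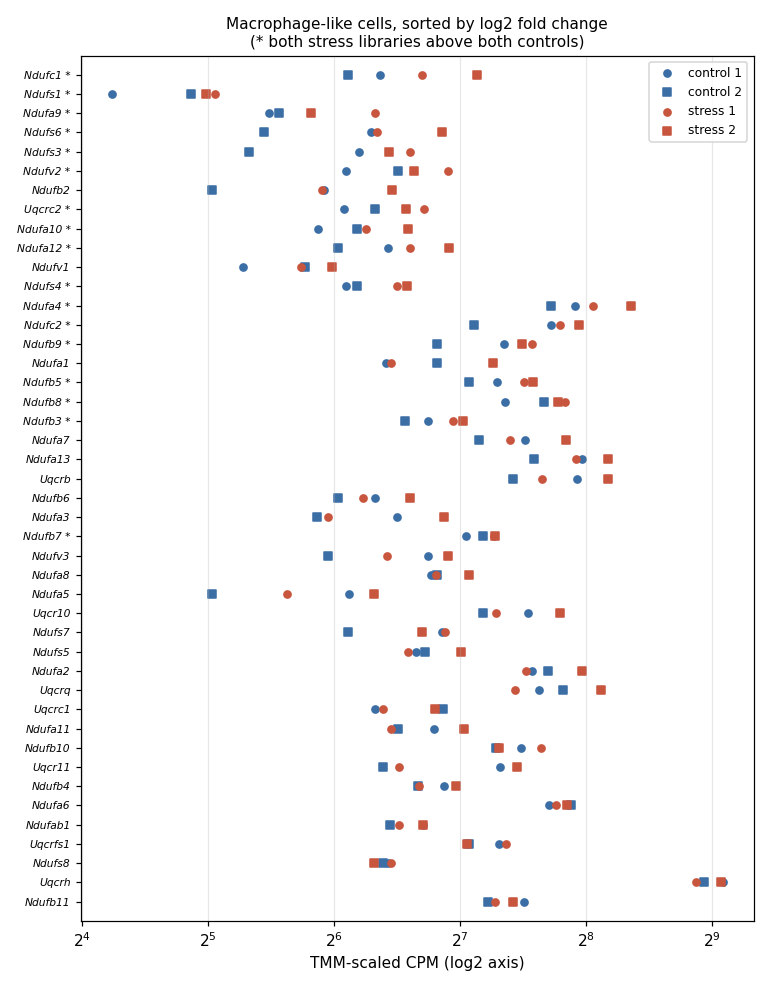
TMM-scaled CPM (x axis, log2 spacing) of 44 of the 45 tested genes in macrophage-like cells of each library, ordered by log2 fold change from the top. An asterisk marks the 17 genes whose stress libraries both lie above both controls, led by Ndufc1 with 104 and 141 against 82.2 and 69.0.

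Whether stress acted differently between cell types was tested as an interaction, with the library as a block. No gene of the 45 was called for plasma cell-like against B cell-like, T cell-like against B cell-like, monocyte-like against B cell-like or macrophage-like against monocyte-like cells, where 0.529, 0.0179, 0.702 and 0.395% of all genes were called. The shares called higher were 0.206, 0, 0.576 and 0.242%, and those called lower 0.323, 0.0179, 0.126 and 0.153%. At an unadjusted p under 0.05 these held 2, 0, 1 and 2 of the genes, and DESeq2 called 0 in each. Among all genes tested, edgeR held at that unadjusted p 1267 of 11161, 847 of 11184, 916 of 9541 and 597 of 7843. The estimate was positive for 39 of 45 genes in the macrophage-like against monocyte-like interaction (median 0.22), and Ndufa4 had the smallest p (0.61 ± 0.22, adjusted p = 0.413). Without control 2 that median was 0.07 with 29 genes positive, and without control 1 it was 0.39 with 38 positive. In that interaction Ndufa4 stood at 0.74 ± 0.22 without control 2 and Ndufb2 at 1.93 ± 0.53 without control 1. Each of these fits held 1 control library. For Ndufb2 it was control 2, with 46 macrophage-like cells. When these types were compared, Ndufb2 stood there at 33.5 scaled CPM in macrophage-like and 110 in monocyte-like cells. In the plasma cell-like against B cell-like interaction Ndufc2 stood at -0.50 ± 0.14 (adjusted p = 0.151).

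In all kept cells together, Ndufa1 had the largest estimate for stress. It stood at 134 and 105 scaled CPM in controls 1 and 2 and at 147 and 252 in stress 1 and 2, with the groups apart (log2 0.74 ± 0.33, adjusted p = 0.750). Ndufa4 stood at 360 and 254 against 368 and 472 (log2 0.45 ± 0.26, adjusted p = 0.777). Within cell types the estimate for Ndufa1 was 0.12 ± 0.19 in B cell-like, 0.15 ± 0.20 in plasma cell-like and 0.40 ± 0.27 in T cell-like cells. Plasma cell-like cells, where both genes were higher than in B cell-like cells on both scales, were 8.08 and 2.63% of kept cells in the controls and 12.1 and 16.4% under stress. The part of this cell number in the estimate for all cells was not tested, and in a sum over all cells more cells of a type and more RNA per cell cannot be told apart.

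In the stress fits, these genes were called only with control 1 left out. Leaving out control 2 also raised the share of all genes called in all cells, though none of these genes was called. The median log2 change of these genes in all cells was -0.02 without control 2 and 0.31 without control 1. Without it, 8 genes were called higher under stress in all cells, namely Ndufa4, Ndufa12, Ndufab1, Ndufb9, Ndufc2, Ndufs5, Ndufs8 and Uqcrq. That is 17.4% of 46 genes, where 21.6% of all genes were then called. Likewise, Ndufa12 was called in B cell-like cells (log2 0.63 ± 0.16, adjusted p = 0.0210), where 8.61% of all genes were called, and Ndufa12 and Ndufb7 in T cell-like cells, where 15.2% were. These shares of the genes were below those of all genes. With control 1 left out, control 2 was the lone control library and was taken to vary like the others.

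Ndufa4l2, the paralog of Ndufa4 known as a hypoxia-induced gene, was the only gene left out by the filter on low counts in every one of the comparisons above with all 4 libraries. Over all kept cells it had 7 and 1 UMIs in controls 1 and 2, against 7 and 11 in stress 1 and 2. Of these, 6 of the 7 in control 1 were in fibroblast-like cells, and plasma cell-like cells held 1, 1, 7 and 10, so no level could be compared at this depth. At the other end, Uqcrh made 7.78 to 11.4% of the UMIs of the 46 genes in all cells, Ndufa4 5.44 to 7.98% and Ndufs1 0.441 to 0.602%, as counts of molecules not divided by length. The annotation lists pseudogenes named after Uqcrh and Ndufab1, which have no counts of their own in the matrices. Whether reads of these pseudogenes entered the values of Uqcrh and Ndufab1 was not tested. Ndufa13, Ndufb2 and Ndufb8 overlap another protein-coding gene model on the same strand (Yjefn3, Gm42420 and Gm20538), so their values, like that of Ndufb9, are uncertain to that extent.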

How the data were processed

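Droplet single-cell RNA-seq of sorted colon leukocytes was measured in 4 libraries, 2 control and 2 stress. The deposited values are raw UMI counts, not normalized. Per the submitters' processing notes they come from Cell Ranger (5 and 5.0) and mm10, while the file headers name software 3.1.0. Which gene annotation was used is not stated there. The members and lists were chosen with earlier results of these data known. Coordinates are those of GENCODE vM21 on GRCm38, 1-based, in which 30934 of the 31053 identifiers were found.

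Kept barcodes had 500 or more UMIs and no more than 10% mitochondrial UMIs, and 15 lists of 6 markers assigned cell types (at least 2 markers detected, ahead of every other list by at least 1). The markers are not among the 46 genes. Of the B cell-like cells 11.3% held exactly 2 markers, of the monocyte-like cells 19.1% and of the macrophage-like cells 6.06%. Doublets were not removed in the main analysis. Scrublet in scanpy 1.11.5, with an expected rate that grows with the number of barcodes, gave the alternative. The highest scores up to that rate were taken where its own threshold marked under 0.5% or over 20% of cells, and it marked 53, 86, 556 and 137 cells.

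Counts were summed per library and cell type with at least 30 cells in every library. edgeR 4.0.16 (R 4.3.3) was run on the sums with TMM, filterByExpr and the robust quasi-likelihood test, with Benjamini-Hochberg adjustment over all genes tested and a threshold of 0.05. Comparisons between cell types and interactions had the library as a block. The SE given with an edgeR log2 change is its absolute size divided by the square root of the F statistic of that test. DESeq2 1.42.0 was an alternative, and others were no filter, a mitochondrial limit of 25%, a gate of at least 3 markers ahead by 2, immunoglobulin and mitochondrial rows left out, each library left out, and the replicate number as a block. TMM-scaled levels are comparable within a comparison only. The scripts were tested on simulated data.

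Genes named in a comparison were those that passed (the 10 with the largest change among those of at least 20 CPM where more than 10 did) and, where fewer than 10 passed, the 5 with the smallest p in each direction. The core subunits were given as a range, and genes of other lists up to 3 per list by p. Genes outside this rule that were named for their values are Uqcrh, Uqcr10 and single core subunits in plasma cell-like against B cell-like cells. Further ones are Ndufab1 in monocyte-like cells, Ndufa4l2, Uqcrh in macrophage-like cells, and the genes called without control 1. These were chosen after their values were seen. Promoter stretches are from RefSeq, cut at the more upstream of the RefSeq and GENCODE starts. The values of 1 of the 46 genes are not reported singly here, although it is part of the counts and medians.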

Additional observations from a re-analysis of the deposited data

How the results depend on the processing

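Of 205 named genes in their comparisons, with 2103 values under the alternatives with a test, 0 changed sign while passing in either fit, 21 lost a call, 11 gained a call, and 117 changed sign where neither fit passed, so those directions were not read. As a share of all UMIs, a comparison added after seeing the data, the median of the plasma cell-like comparison was -0.80, and Ndufa13, Ndufb6 and Ndufs6 were at -0.11, -0.27 and -0.17.

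The count of called genes against B cell-like cells stayed at 39 to 41 in plasma cell-like cells under every alternative with a test. Leaving out each library gave 0 to 8 called in all cells, 0 to 1 in B cell-like and 0 to 2 in T cell-like cells for stress, 13 to 21 for monocyte-like against B cell-like, 0 to 2 for macrophage-like against monocyte-like cells and 0 to 1 for the interaction of the latter. Of all genes, 53.4 to 66.9% were called as libraries were left out for monocyte-like against B cell-like cells. For macrophage-like against monocyte-like cells it was 10.4 to 12.8%. DESeq2 called 0 of the Nduf and Uqcr genes for macrophage-like against monocyte-like cells, where it called 8.18% of all genes. The causes were not tested. In macrophage-like cells the median for stress was between 0.16 and 0.39 without a library and between 0.20 and 0.25 under the other alternatives.

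Summed shares that moved by more than the spread between libraries were, at the mitochondrial limit of 25%, 0.576 and 0.598% in B cell-like cells of stress 1 and 2, and, with the stricter gate, 0.413% in plasma cell-like and 0.551% in macrophage-like cells of control 2. Without immunoglobulin and mitochondrial UMIs they were 0.798, 0.606, 0.772 and 0.859% in all cells of controls 1 and 2 and stress 1 and 2, and 1.27, 1.19, 1.18 and 1.29% in plasma cell-like cells. They were then 0.656 and 0.674% in B cell-like, 0.671 and 0.741% in T cell-like and 0.671 and 0.707% in monocyte-like cells of stress 1 and 2, and 0.570 and 0.557% in macrophage-like cells of controls 1 and 2.

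The labels do not say whether replicate numbers pair the libraries. Deviations of same-numbered libraries from their group means correlated over genes between -0.20 and 0.0058. With so few libraries per group this cannot decide whether they were paired. With the replicate block, 0 of the tested Nduf and Uqcr genes were called in each of the 7 stress fits. Of all genes, 0.87% were then called in B cell-like, 0.602% in plasma cell-like, 0.016% in monocyte-like and 1.08% in macrophage-like cells. In all cells together, T cell-like and NK or ILC1-like cells it was 0%. NK or ILC1-like sums, of 206856 to 347295 UMIs, give the least precision.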
